A study of Mus musculus with 16 samples.

Results

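The cytoplasmic ribosomal protein genes were followed across the 4 groups of a mouse liver study. Members were chosen by symbol: names beginning with Rpl or Rps and a number, Rplp0 to Rplp2, and Rpsa. Of 50559 gene symbols, 104 matched these letters. Leaving out 10 Rps6k kinases and 2 other proteins, Rps19bp1 and Rps23rg1, left 92 members, with 55 large subunit and 37 small subunit symbols. A further 321 symbols marked "-ps" as pseudogenes were not members. Without that mark, 5 processed and 2 transcribed processed pseudogenes of the annotation used here (GENCODE M21) remained among the 92. Of the 92, 88 passed the filter on low counts and were tested.

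The ribosome is built from a large and a small subunit, each made of ribosomal RNA and proteins that the cell needs in set proportions. The mRNAs of ribosomal proteins commonly start with a C followed by a run of pyrimidines, the 5′ terminal oligopyrimidine (TOP) tract, through which mTORC1 and the RNA-binding protein LARP1 control their translation and stability. Their transcription follows growth signals and MYC. In liver, ribosome production changes with feeding and insulin. Values here are RNA levels, and translation was not measured.

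All 16 mice were male C57BL/6J, on diet for 10 weeks from an age of 6 weeks, and treated from week 6 for 4 weeks, with 4 libraries per group. LFD and HFD mice ate low-fat or high-fat diet, were injected every 2 weeks with an siRNA against luciferase (10 mg/kg) as control, and were gavaged with methylcellulose alone. HFD + siRNA mice ate high-fat diet, were injected with KHK siRNA (20 mg/kg), and had the same gavage. HFD + Inhib mice received high-fat diet, control siRNA and the KHK inhibitor PF-06835919 (15 mg/kg, 2 times per day). KHK is ketohexokinase, which phosphorylates fructose, and the siRNA carries a GalNAc group that hepatocytes take up. The labels call the LFD diet chow. Mice were given saline or insulin shortly before collection, and which mouse received which is not given in the sources used here. An effect of insulin therefore cannot be told apart from spread within a group or from a difference between groups. Nothing pairs the mice between groups.

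Libraries held 24317111 to 35820234 expected counts. Khk stood at 214 to 349 CPM (counts scaled to library size) in LFD and 233 to 322 in HFD, at 9.14 to 18.1 in HFD + siRNA and at 94.6 to 152 in HFD + Inhib. HFD replicate 3 and HFD + Inhib replicate 3 stood apart together: after removing group means, their deviations over genes correlated at 0.34, the highest value of any pair of libraries from different groups. In both, pseudogenes took a larger part of the counts of ribosomal protein genes and their pseudogenes (4.66% and 4.60%) than in the other 14 libraries (3.44% to 4.14%). Results without both are given beside the main ones. Over 8149 other genes, deviations of a library also followed GC content, with Spearman coefficients from 0.01 to 0.65 for LFD libraries, -0.47 to -0.08 for HFD libraries, -0.12 to 0.56 with siRNA and -0.57 to -0.32 with the inhibitor. Coefficients with transcript length were -0.10 to 0.19 for LFD and 0.09 to 0.21 for HFD libraries. They were -0.16 to -0.11 with siRNA and -0.17 to 0.13 with the inhibitor. Ribosomal protein transcripts are short (median length 772.5 bases against 2412 for all tested genes), and each comparison is therefore also given after a correction for GC content and length.

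Ribosomal protein genes took a smaller share of the counts in HFD than in any other group. The share was 1.11%, 1.07%, 1.23% and 1.05% in the LFD libraries and 0.808%, 0.722%, 0.689% and 0.780% in the HFD libraries. It was 0.954%, 1.06%, 0.990% and 1.05% in HFD + siRNA, and 0.922%, 0.889%, 0.852% and 0.913% in HFD + Inhib. No HFD library reached the lowest value of another group, and the HFD + Inhib libraries all lay below the HFD + siRNA libraries. The HFD + siRNA libraries overlapped with LFD, while the HFD + Inhib libraries did not. Group means ± SD (n = 4) were 1.11% ± 0.0829 in LFD and 0.750% ± 0.0539 in HFD, against 1.01% ± 0.0493 with siRNA and 0.894% ± 0.0314 with the inhibitor. Since these are shares of sequenced RNA in whole liver, fewer cells of a type and less RNA per cell cannot be told apart.

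**Figure D1:**
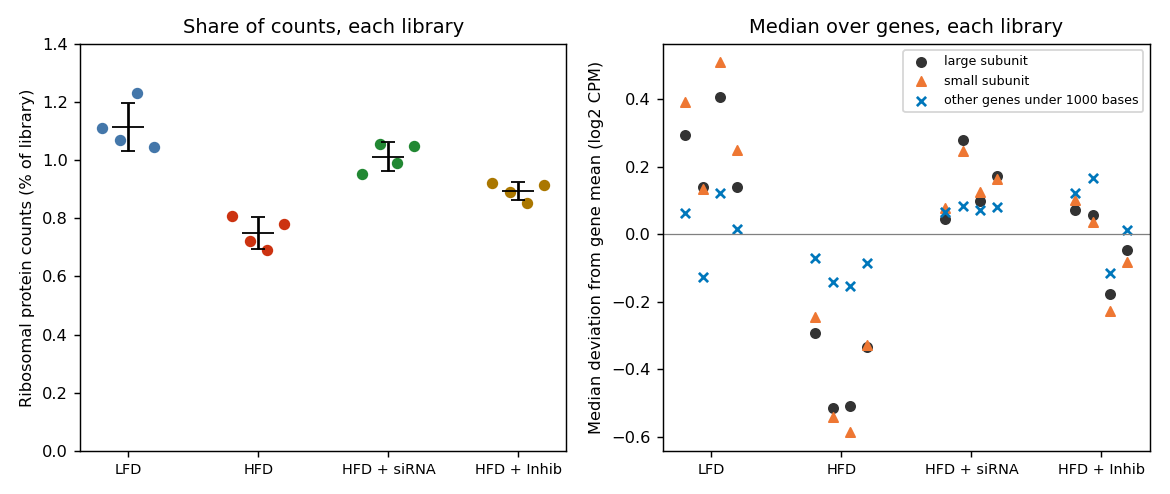
Left, percent of each library's counts from the 92 ribosomal protein genes (points, 4 libraries per group; bars, mean and SD). Right, each library's median deviation from the gene mean on the log2 CPM scale for large subunit, small subunit and 673 other genes under 1000 bases; the HFD libraries lie lowest for both subunits, between -0.59 and -0.25.

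Most ribosomal protein genes were lower in HFD than in LFD. Of the 88 tested, 81 fell and none rose (adjusted p under 0.05 in edgeR's quasi-likelihood test), where 8.80% of all 18335 genes fell and 9.58% rose. All 88 log2 fold changes were negative, from -1.12 to -0.20, with a median of -0.71 against -0.01 over all genes, a median percent change of -38.7% in level. In 75 members no HFD library overlapped with an LFD library, which held for 9.69% of all genes in this direction. After correction for GC content and length, 62 fell and the median was -0.51, where 7.83% of genes fell and 7.46% rose. Without HFD replicate 3 and HFD + Inhib replicate 3, 79 fell with a median of -0.65.

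Sequence around the annotated start is shown for the members with the largest falls (Rpl27a and Rpl12), for Rps3, for Rps26, which had the highest value in HFD + Inhib versus HFD + siRNA, and for the paralogs Rpl22l1 and Rpl7l1, which did not pass the test in HFD. Each runs 5′ to 3′ from 60 bases before the start through 15 bases after it, from RefSeq (GRCm38.p6), at chr7:109519135-109519209 (+), chr2:32961652-32961726 (+), chr7:99483695-99483769 (-), chr10:128626492-128626566 (-), chr3:28805448-28805522 (+) and chr17:46782642-46782716 (-) in the order printed. Capitals mark a run of at least 5 C or T that begins with C within 10 bases of the start, the letters of a TOP tract.
Rpl27a: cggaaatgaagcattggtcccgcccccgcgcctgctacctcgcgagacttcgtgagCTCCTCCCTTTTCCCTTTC
Rpl12: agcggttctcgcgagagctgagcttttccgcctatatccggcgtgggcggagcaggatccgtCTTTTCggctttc
Rps3: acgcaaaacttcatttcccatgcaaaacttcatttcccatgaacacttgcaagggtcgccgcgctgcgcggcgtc
Rps26: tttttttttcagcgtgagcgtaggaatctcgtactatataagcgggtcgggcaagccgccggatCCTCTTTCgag
Rpl22l1: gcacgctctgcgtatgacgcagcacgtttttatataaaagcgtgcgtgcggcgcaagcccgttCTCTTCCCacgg
Rpl7l1: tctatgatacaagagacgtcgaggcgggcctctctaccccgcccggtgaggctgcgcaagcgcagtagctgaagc

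Promoter sequence (250 bases before to 50 after the start) was at hand for 67 of the 92 members, in 79 entries. Such a pyrimidine run on the sense strand was found in 43 of the 79 (54.4%) and in 29.7% of all 32851 promoters. CCGGAA, the core letters bound by ETS factors, was found on either strand in 37 of the 79 (46.8%) and in 14.9% of all promoters. TATAAA was found on either strand in 8 of the 79 (10.1%), against 13.6% of all. The 38 tested members with a pyrimidine run had a median log2 fold change of -0.70 in HFD versus LFD and the 26 without one -0.69. Annotated starts need not be the starts used in these livers, so that a missing run says only that these letters are not in this window.

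Rps3 and Rplp0 go in the direction of the common pattern. The study had picked them from these same data as decreased in HFD and restored by both treatments. Their changes in HFD and with siRNA were larger than the medians of the members. Rps3, at the mRNA entry of the small subunit, stood at 160, 143, 172 and 150 CPM in LFD and at 94.0, 83.0, 72.4 and 92.5 CPM in HFD. It stood at 135, 156, 130 and 145 CPM in HFD + siRNA and at 128, 119, 95.6 and 110 CPM in HFD + Inhib. The HFD libraries lay below all others, and those of HFD + Inhib lay between HFD and LFD. The log2 fold change was -0.87 ± 0.11 (SE) in HFD versus LFD (adjusted p = 9.6e-05), 0.73 ± 0.11 in HFD + siRNA versus HFD (adjusted p = 0.0008). With the inhibitor it was 0.40 ± 0.11 relative to HFD (adjusted p = 0.013; 0.052 without HFD + Inhib replicate 1).

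Rplp0, the base of the lateral stalk that recruits translation factors, stood at 279, 223, 295 and 230 CPM in LFD and at 150, 146, 128 and 144 CPM in HFD. It reached 227, 223, 247 and 245 CPM in HFD + siRNA and 197, 203, 154 and 169 CPM in HFD + Inhib. The HFD + siRNA libraries overlapped with LFD, and the HFD + Inhib libraries all lay below LFD. It fell by 0.85 ± 0.11 on the log2 scale in HFD (adjusted p = 0.00015) and rose by 0.73 ± 0.11 in HFD + siRNA (adjusted p = 0.001). With the inhibitor it rose, relative to HFD, by 0.34 ± 0.11 (adjusted p = 0.036), a call lost without HFD replicate 1, 2, 3 or 4 or HFD + Inhib replicate 1 or 2 (adjusted p 0.054 to 0.12).

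**Figure D2:**
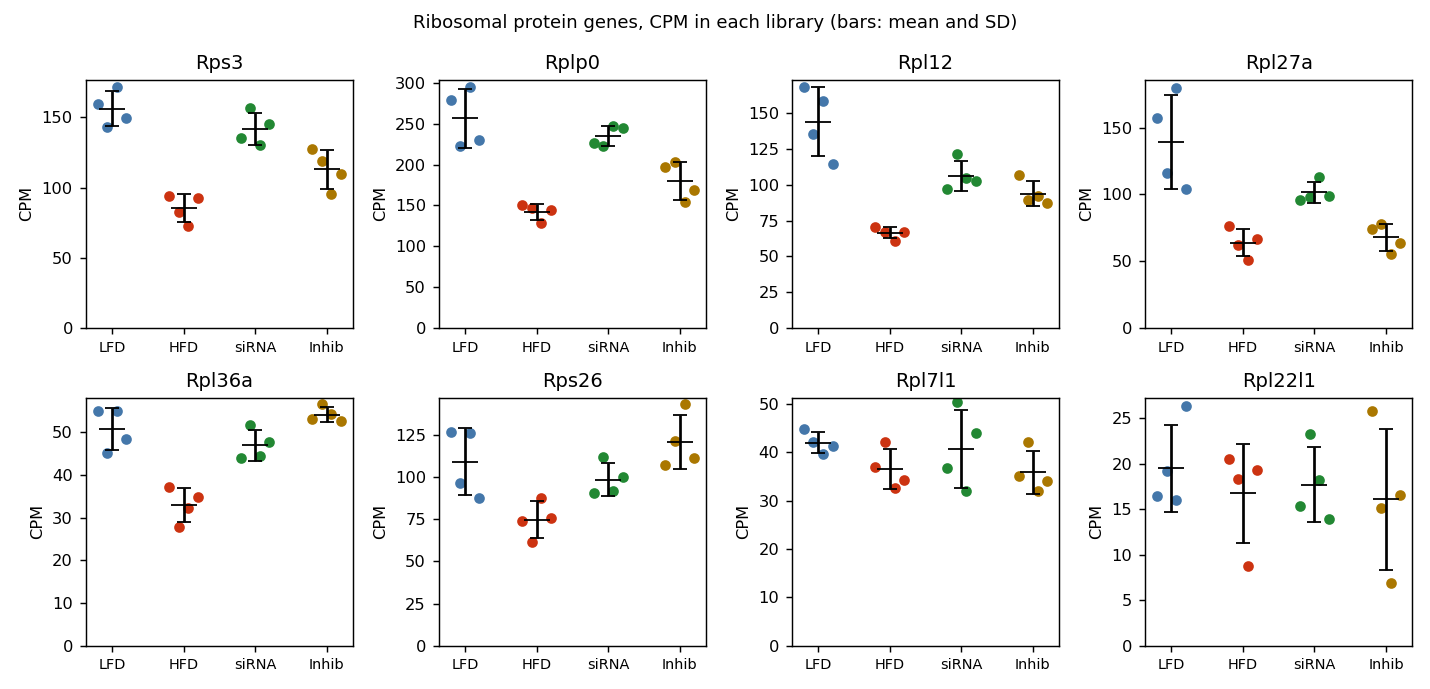
CPM of 8 ribosomal protein genes in each library (points; bars, mean and SD, n = 4; each axis starts at 0). Rps3, Rplp0, Rpl12, Rpl27a and Rpl36a are lower in all HFD than in all LFD libraries, Rps26 overlaps in 1 HFD library (87.7 CPM), and the Rpl7l1 and Rpl22l1 groups overlap throughout.

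The largest fall was that of Rpl27a, a large subunit protein. Its 157, 116, 179 and 104 CPM in LFD stood against 76.2, 61.9, 51.2 and 66.5 CPM in HFD, and the log2 fold change was -1.12 ± 0.16 (adjusted p = 0.00043). Rpl12, which sits at the base of the stalk beside Rplp0, had 168, 135, 158 and 114 CPM in LFD and 70.6, 67.4, 61.1 and 67.4 CPM in HFD, and the log2 fold change was -1.11 ± 0.11 (adjusted p = 2.9e-05). In both genes the highest HFD library lay well under the lowest LFD library.

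All 4 lateral stalk genes fell in HFD (log2 fold changes -1.11 to -0.85), as did Rpl5 and Rpl11, which carry 5S RNA to the ribosome and can bind MDM2 (-0.46 ± 0.11, adjusted p = 0.009, and -0.74 ± 0.11, adjusted p = 0.00051). All 6 tunnel exit genes fell, from -0.74 in Rpl35 to -0.37 in Rpl23a, the call of Rpl39 (-0.67 ± 0.18, adjusted p = 0.016) being lost without HFD replicate 3 (0.058). At the mRNA entry Rps2 fell by 0.70 ± 0.14 (adjusted p = 0.0032), and all 4 mRNA exit genes fell, led by Rpsa, the laminin receptor precursor (-0.92 ± 0.10, adjusted p = 6.2e-05). Rpsa stood at 341, 247, 313 and 238 CPM in LFD and at 153, 147, 156 and 147 CPM in HFD, with no overlap. The smallest falls that passed the test were those of Rpl23a (-0.37 ± 0.12, adjusted p = 0.038) and Rpl30 (-0.37 ± 0.11, adjusted p = 0.036). The call of Rpl23a was lost on leaving out any of the 8 libraries (adjusted p 0.051 to 0.12), that of Rpl30 without LFD replicate 3 or 4 or HFD replicate 1, 2 or 4 (0.059 to 0.12). After the GC and length correction Rpl19, Rpl23a, Rpl27, Rpl30, Rpl31, Rplp2, Rps26, Rps27l and Rps28 no longer passed among the named members (adjusted p 0.053 to 0.49).

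**Figure D3:**
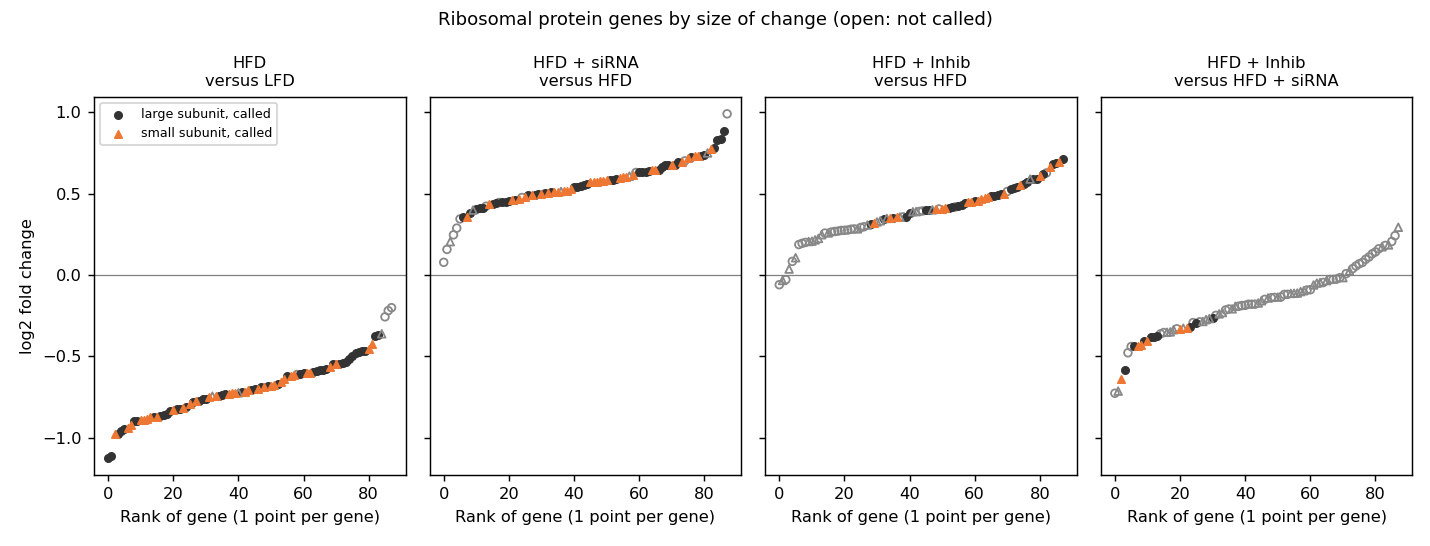
The log2 fold change of each tested ribosomal protein gene, ranked within each of 4 comparisons (circles, large subunit; triangles, small subunit; filled, adjusted p under 0.05; open, not called). All 88 points lie below 0 in HFD versus LFD and above 0 in HFD + siRNA versus HFD, and 71 lie below 0 in HFD + Inhib versus HFD + siRNA.

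In HFD + siRNA most of these genes were higher than in HFD. Of 88, 72 rose and none fell, where 5.20% of all genes rose and 6.55% fell. All 88 log2 fold changes were positive, from 0.08 to 0.99, with a median of 0.55 (a median rise of 46.8%) against 0.02 over all genes. In 81 members no library overlapped between the groups, against 10.1% of all genes in this direction. After the GC and length correction 44 rose and the median was 0.32, where 4.46% of genes rose and 5.03% fell. Correction for length alone also left 44, and for GC content alone 63. Without HFD replicate 3 the count was 56 and without both replicates 3 it was 65.

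Rpl37 rose most among the members that passed, from 54.2, 38.3, 33.7 and 55.0 CPM in HFD to 70.7, 94.0, 78.1 and 91.4 CPM in HFD + siRNA (log2 fold change 0.88 ± 0.20, adjusted p = 0.012). Rplp1, which pairs with Rplp2 at the tip of the stalk, rose by 0.83 ± 0.18 (adjusted p = 0.009), and Rpl26 at the tunnel exit by 0.73 ± 0.11 (adjusted p = 0.0012). Rpl27 had the largest fold change but did not pass (0.99 ± 0.32, adjusted p = 0.052). Its HFD libraries spread from 19.7 to 57.2 CPM, with HFD replicate 3 lowest, and all lay below the 72.2 to 84.3 CPM of HFD + siRNA. Rpsa stood at 191, 196, 196 and 188 CPM in HFD + siRNA, a log2 fold change of 0.35 ± 0.10 (adjusted p = 0.036) whose call was lost on leaving out any of the 8 libraries (0.068 to 0.11). Rpl15 (0.25 ± 0.10, adjusted p = 0.11) and Rpl30 (0.29 ± 0.11, adjusted p = 0.12) did not pass, although their groups did not overlap.

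In HFD + Inhib fewer of the genes were called higher than in HFD. Of 88, 45 rose and none fell, where 9.80% of all genes rose and 8.42% fell. The log2 fold changes ran from -0.06 to 0.71 with a median of 0.39 (a median rise of 31.2%), and 85 were positive. In 45 members no library overlapped, against 12.4% of all genes in this direction. After the GC and length correction 38 rose, with a median of 0.26, where 11.1% of genes rose and 9.94% fell. Without HFD replicate 3 and HFD + Inhib replicate 3, 41 rose with a median of 0.40.

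The members that rose most were Rpl36a, Rps26 and Rpl23. Rpl36a, near the exit site of tRNA, went from 37.2, 27.9, 32.3 and 34.8 CPM in HFD to 53.1, 56.7, 54.2 and 52.8 CPM in HFD + Inhib (log2 fold change 0.71 ± 0.09, adjusted p = 6.8e-05). Its HFD + Inhib libraries lay above all HFD + siRNA libraries (44.1 to 51.8 CPM), though that difference did not pass (0.21 ± 0.09, adjusted p = 0.10). Rps26, at the mRNA exit channel, went from 74.1, 61.4, 87.7 and 75.8 CPM to 107, 121, 143 and 111 CPM (0.69 ± 0.14, adjusted p = 0.0021). Rpl23 rose by 0.69 ± 0.12 (adjusted p = 0.00069) and Rpl19 by 0.57 ± 0.09 (adjusted p = 0.00038). All 6 tunnel exit genes rose (log2 fold changes 0.41 to 0.62), the call of Rpl26 being lost without HFD replicate 2 (adjusted p = 0.057) and that of Rpl39 without HFD replicate 2 or 3 or HFD + Inhib replicate 1, 2 or 4 (0.059 to 0.080). Rpl27a, the largest faller in HFD, stood at 74.2, 77.9, 55.6 and 63.5 CPM in HFD + Inhib, overlapping with HFD (0.08 ± 0.16, adjusted p = 0.77). Rps2 (0.11 ± 0.14, adjusted p = 0.65) also did not pass.

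By these calls, 41 members fell in HFD and rose in both treated groups, 31 rose in HFD + siRNA and did not pass in HFD + Inhib, and 4 (Rpl5, Rpl15, Rpl30 and Rps26) the other way round. A further 5 (Rpl10a, Rpl27, Rpl36, Rplp2 and Rps28) fell in HFD and passed in neither. The Rpl27 call in HFD was lost without LFD replicate 1, 3 or 4 or HFD replicate 2, 3 or 4 (adjusted p 0.065 to 0.13), that of Rps26 without LFD replicate 3 (0.051), and the Rpl15 call in HFD + Inhib without HFD replicate 3 (0.051) or HFD + Inhib replicate 1 (0.068). With correction for GC content and length, Rpl5 passed with siRNA (0.54 ± 0.09, adjusted p = 0.0019) as well as with the inhibitor (0.31 ± 0.09, adjusted p = 0.023), and Rpl30 passed with neither (0.25 ± 0.12 with the inhibitor, adjusted p = 0.17). Both treated groups were compared with the same HFD libraries, so these counts are not independent, and a call in one group alone is no difference between treatments.

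Compared directly, 15 members were lower in HFD + Inhib than in HFD + siRNA and none was higher. This is 17.0% of the 88, close to the 16.6% of all genes that were lower (17.3% were higher), and the median log2 fold change was -0.18 against -0.04 over all genes. The largest differences among named members that passed were those of Rps4l (-0.64 ± 0.20, adjusted p = 0.021) and Rpl27a (-0.58 ± 0.16, adjusted p = 0.011). Rplp0 (-0.38 ± 0.11, adjusted p = 0.012) and Rps3 (-0.33 ± 0.10, adjusted p = 0.024) were also lower. Rps26 (0.29 ± 0.14, adjusted p = 0.11) and Rpl30 (0.24 ± 0.11, adjusted p = 0.12) had the largest positive values. After the GC and length correction 12 were lower and 2 higher, Rpl15 (0.29 ± 0.07, adjusted p = 0.0083) and Rpl19 (0.30 ± 0.10, adjusted p = 0.038), with a median of -0.07, where 14.1% of genes were lower and 14.8% higher. Rps4l no longer passed (-0.27, adjusted p = 0.27). The count was 8 without HFD + siRNA replicate 2 or 3, 7 without HFD + siRNA replicate 4, 6 without HFD + Inhib replicate 3 or 4, and 5 without both replicates 3. The call of Rps3 was lost without HFD + siRNA replicate 2 or 4 or HFD + Inhib replicate 3 or 4 (adjusted p 0.061 to 0.084), and that of Rps4l without HFD + siRNA replicate 1 or 3 or HFD + Inhib replicate 1 or 2 (0.055 to 0.081).

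Relative to LFD, HFD + siRNA left 2 members lower, Rpl12 (-0.44 ± 0.11, adjusted p = 0.023) and Rpsa (-0.56 ± 0.10, adjusted p = 0.003), where 3.88% of all genes were lower and 4.75% higher, and the median was -0.13. With the GC and length correction 18 were lower, where 6.15% of genes were lower and 6.31% higher. Leaving out 1 library gave 1 to 6, with 6 without LFD replicate 2 or HFD + siRNA replicate 2, 5 without LFD replicate 4 and 1 without each of the others. In HFD + Inhib 40 members stayed lower than in LFD, where 18.2% of all genes were lower and 18.8% higher, and the median was -0.32. This count was 23 without LFD replicate 3. With the GC and length correction 38 were lower, with a median of -0.29, where 14.8% of genes were lower and 14.6% higher. Over the 83 members whose average log2 CPM was 3 or more, the mean level in HFD was 46.0% to 87.0% of that in LFD (median 61.3%). It was 67.7% to 118% (median 91.2%) in HFD + siRNA and 48.7% to 118% (median 80.5%) in HFD + Inhib. In 57 of the 88 tested members the group means ran LFD, HFD + siRNA, HFD + Inhib, HFD from high to low.

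The large and small subunit are given side by side, and the difference between them was not tested. In HFD versus LFD 48 of 52 large subunit genes and 33 of 36 small subunit genes fell, with medians of -0.68 and -0.72. In HFD + siRNA versus HFD 41 and 31 rose (medians 0.54 and 0.57), and in HFD + Inhib versus HFD 28 and 17 rose (medians 0.40 and 0.37). In HFD + Inhib versus LFD 19 of 52 large (36.5%) and 21 of 36 small subunit genes (58.3%) were lower (medians -0.27 and -0.34), and after the GC and length correction 21 and 17 were lower (medians -0.21 and -0.32). Large subunit genes took 58.8% to 61.6% of the ribosomal protein counts in every library, the highest values being those of HFD replicate 3 (61.2%) and HFD + Inhib replicate 3 (61.6%). After the correction the medians of both subunits in HFD versus LFD were -0.51. Within groups the members also varied together: over 83 members, deviations from the group mean in 16 libraries had a median pairwise correlation of 0.45, against 0.01 for all genes, with 85.1% of pairs positive. Other lists moved with them in part. The median log2 deviation in LFD replicates 2 and 3 was 0.14 and 0.45 for members. It was -0.18 and 0.25 for nuclear respiratory chain genes and -0.13 and 0.12 for other genes under 1000 bases. HFD + Inhib replicate 3 was lowest of its group in each list. In HFD + siRNA the respiratory chain spread less (0.06 to 0.09) than the members (0.05 to 0.27). Correlations within those lists or after the correction were not tested.

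The members that did not pass in HFD versus LFD were paralogs and copies. Rpl7l1, a paralog of Rpl7, stood at 44.9, 42.1, 39.6 and 41.3 CPM in LFD and at 37.0, 42.2, 32.5 and 34.4 CPM in HFD (-0.20 ± 0.13, adjusted p = 0.29). It did not pass in HFD + siRNA (0.16 ± 0.13, adjusted p = 0.46) or HFD + Inhib (-0.03 ± 0.13, adjusted p = 0.91) versus HFD either, while Rpl7 fell by 0.54 ± 0.10 in HFD (adjusted p = 0.002). Rpl22l1, a paralog of Rpl22, stood at 15.98 to 26.3 CPM in LFD and 8.72 to 20.5 CPM in HFD (-0.22 ± 0.32, adjusted p = 0.67). Its lowest values were those of HFD replicate 3 (8.72 CPM) and HFD + Inhib replicate 3 (6.86 CPM), and its fold changes are correspondingly uncertain. Rpl22 itself fell by 0.68 ± 0.11 (adjusted p = 0.00088).

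Other paralogs followed the common pattern. Rpl36al fell by 0.53 ± 0.10 in HFD (adjusted p = 0.0023) and rose by 0.54 ± 0.10 in HFD + siRNA (adjusted p = 0.0035). Rps27l, a paralog of Rps27 that p53 induces, stood at 82.5, 73.3, 91.4 and 77.6 CPM in LFD, at 68.4, 47.4, 56.3 and 69.7 CPM in HFD, at 86.1, 95.0, 84.1 and 82.9 CPM in HFD + siRNA and at 92.6, 95.0, 76.8 and 89.9 CPM in HFD + Inhib. Its fall in HFD was -0.43 ± 0.11 (adjusted p = 0.018; 0.068 without LFD replicate 3 and 0.058 without HFD replicate 3). It rose by 0.53 ± 0.11 in HFD + siRNA (adjusted p = 0.0086) and by 0.55 ± 0.11 in HFD + Inhib (adjusted p = 0.0031; 0.25 after the GC and length correction). Rps4l did not pass in HFD (-0.36 ± 0.20, adjusted p = 0.22). Rps4l, Rpl37rt, Rpl32l and Rps3a3 are pseudogenes in the annotation used here (GENCODE M21), and Rps27rt shares 91.1% of its sequence words of 50 bases with Rps27. These 5 also did not pass in HFD versus LFD, but apart from Rps4l their mean levels in LFD were only 0.494 CPM (Rps3a3) to 3.23 CPM (Rpl37rt). Their log2 fold changes were -0.61 ± 0.26 in Rpl37rt (adjusted p = 0.11), -0.72 ± 0.41 in Rps27rt (adjusted p = 0.23), -0.74 ± 0.52 in Rps3a3 (adjusted p = 0.34) and -0.26 ± 0.29 in Rpl32l (adjusted p = 0.58). In the first 3 the mean level in HFD was 65.8%, 61.1% and 59.6% of that in LFD, near the median of the members, and a missed call does not show that they differ from the others. The annotated pseudogenes Rpl6l (-0.87 ± 0.16, adjusted p = 0.002) and Rps3a2 (-0.73 ± 0.20, adjusted p = 0.02), named after their values were seen, did fall.

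The filter left out 4 symbols. Rpl10l, a testis paralog, was at 0 counts in all 16 libraries. Rpl39l had 0 to 4 counts and Rpl3l, a muscle paralog, 0 to 8 counts per library. Rps12l1, an annotated processed pseudogene, had 42 counts in HFD replicate 1, 32 in HFD + siRNA replicate 3, 33 in HFD + Inhib replicate 3 and 0 in the others.

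Ribosomal protein sequences are shared with many pseudogenes, and expected counts divide such reads. Over 85 protein-coding members a median of 35.8% of the 50-base words was found in another gene. In HFD versus LFD the 16 tested members with at most 20% of words shared had a median log2 fold change of -0.67 (15 fell), and the 21 with over 60% shared had -0.71 (20 fell). In HFD + siRNA versus HFD these medians were 0.58 and 0.51, and in HFD + Inhib versus HFD 0.40 and 0.35. Rps3 shares 2.82% of its words with another gene.

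Fau and Rack1, ribosomal proteins whose symbols lie outside the rule, fell in HFD as well. Fau, a ubiquitin-like fusion that yields a small subunit protein, had a log2 fold change of -0.50 ± 0.10 (adjusted p = 0.0035), and Rack1, a scaffold on the small subunit, one of -0.87 ± 0.15 (adjusted p = 0.0013). In HFD + siRNA versus HFD both rose, by 0.39 ± 0.10 in Fau (adjusted p = 0.019) and by 0.64 ± 0.15 in Rack1 (adjusted p = 0.011). The Fau call was lost without HFD replicate 4 or HFD + siRNA replicate 3 or 4 (adjusted p 0.058 to 0.063). With the inhibitor Fau rose relative to HFD by 0.38 ± 0.10 (adjusted p = 0.015; 0.0504 without HFD replicate 2). Rack1 did not pass in that comparison (0.25 ± 0.15, adjusted p = 0.27) and was lower in HFD + Inhib than in LFD (-0.62 ± 0.15, adjusted p = 0.0037). The changes of Fau were -0.00 in HFD versus LFD and -0.058 in HFD + siRNA versus HFD after the GC and length correction.

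Lists of related function had smaller medians, and their counts stand against 8.80% of all genes that fell and 9.58% that rose in HFD versus LFD, 5.20% that rose and 6.55% that fell in HFD + siRNA versus HFD, and 9.80% that rose and 8.42% that fell in HFD + Inhib versus HFD. Of 18 translation elongation and other TOP mRNAs, 9 fell and none rose in HFD versus LFD, with a median of -0.23. In HFD + siRNA versus HFD 7 rose and 2 fell, and in HFD + Inhib versus HFD 10 rose and none fell. Eef1b2 (-0.58 ± 0.09, adjusted p = 0.0007) and Eef1g (-0.56 ± 0.09, adjusted p = 0.00076), subunits of elongation factor 1, fell most in HFD. Of 29 initiation factors 5 fell and 1 rose in HFD (median -0.08). Eif3i, a subunit of the eIF3 complex, fell by 0.79 ± 0.10 (adjusted p = 0.00015), while Eif3j1, another eIF3 subunit, rose by 0.52 ± 0.12 (adjusted p = 0.0094).

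Of 42 ribosome biogenesis factors 7 (16.7%) fell in HFD and none rose (median -0.26). With siRNA 1 rose (2.38%) and 2 fell (4.76%) relative to HFD, both under the shares over all genes, and 10 rose and none fell in HFD + Inhib versus HFD. Of 19 mTORC1 and MYC regulators 3 fell and none rose in HFD. Among them were Tsc2 (-0.36 ± 0.08, adjusted p = 0.0077) and Eif4ebp1, an mTORC1 substrate (-0.77 ± 0.19, adjusted p = 0.012; 0.051 without LFD replicate 3). Of 11 snoRNA host genes, many of which are TOP mRNAs, 1 rose in HFD (Snhg14, 1.19 ± 0.35, adjusted p = 0.028; 0.064 to 0.087 without LFD replicate 1 or 3 or HFD replicate 3 or 4) and none fell, a share (9.09%) near that over all genes.

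Other short or ribosomal genes gave a measure of the general trend. Of 78 mitochondrial ribosomal protein genes 11 fell and 2 rose in HFD (median -0.13), 13 rose and 1 fell in HFD + siRNA versus HFD (median 0.19), and 25 rose in HFD + Inhib versus HFD (median 0.24). Of 51 nuclear genes of the respiratory chain 9 fell and 1 rose in HFD (median -0.23), 12 rose in HFD + siRNA (median 0.29) and 22 in HFD + Inhib (median 0.33). Over all genes 8.80% fell and 9.58% rose in HFD versus LFD. Relative to HFD, 5.20% rose and 6.55% fell with siRNA, and 9.80% rose and 8.42% fell with the inhibitor. The 673 other genes under 1000 bases had medians of -0.14, 0.21 and 0.17. After the GC and length correction the respiratory chain medians were -0.01, 0.00 and 0.17 and those of the other short genes 0.07, -0.04 and 0.03. Those of the ribosomal protein genes were -0.51, 0.32 and 0.26. Respiratory chain genes and other short genes took part in the fit of the correction, so that their corrected medians are no independent measure.

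**Figure D4:**
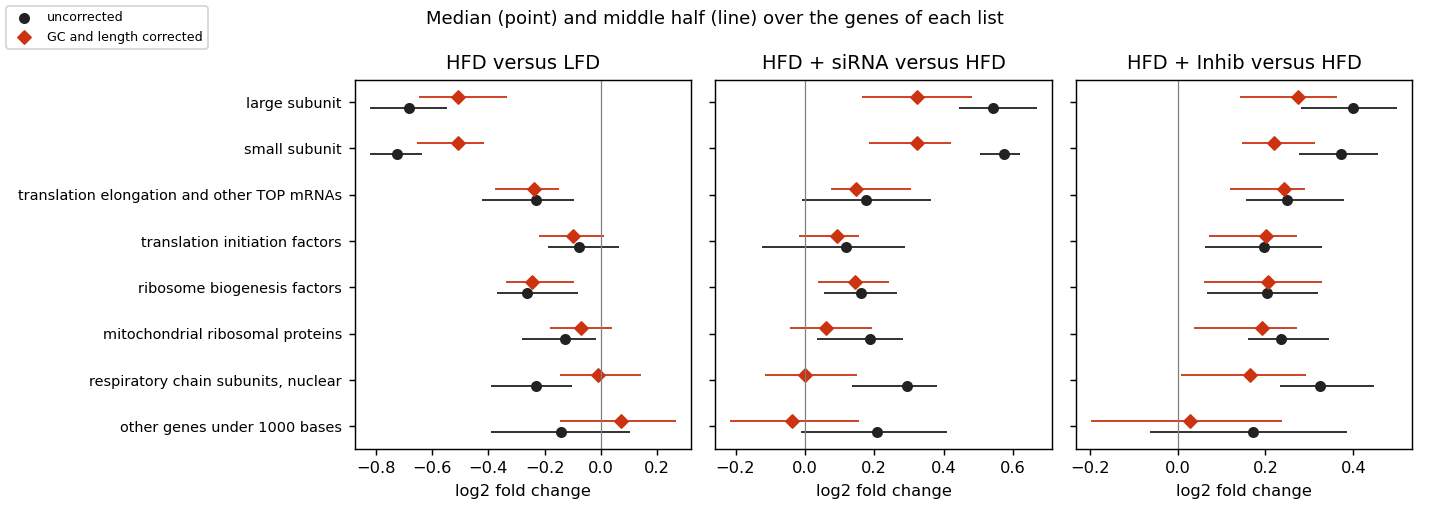
Median log2 fold change (points) and interquartile range of the genes (lines) of 8 gene lists in 3 comparisons, before (black circles) and after (red diamonds) correction for GC content and length. Both subunits keep medians of -0.51 in HFD versus LFD after correction, where those of short genes and of the respiratory chain lie at 0.07 and -0.01. The short genes took part in the fit of the trend, so that their median near 0 follows from the correction. The respiratory chain genes took part as well, and their corrected median is no independent measure.

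Cell type markers were compared as summed CPM per library. The 10 hepatocyte markers summed to 89464 to 104033 in LFD, 72747 to 88984 in HFD, 80786 to 93436 with siRNA and 58440 to 61133 with the inhibitor, the last not overlapping with the others. The 8 macrophage markers summed to 307 to 479 in LFD, 291 to 372 in HFD, 310 to 436 with siRNA and 194 to 296 with the inhibitor. The 8 lymphocyte markers had median sums of 14.2 in LFD, 19.6 in HFD, 13.0 with siRNA and 12.7 with the inhibitor. The 7 stellate cell markers summed to 208 to 229 in LFD, 242 to 292 in HFD, 261 to 312 with siRNA and 212 to 265 with the inhibitor, so that both HFD and HFD + siRNA lay above LFD without overlap. The 7 endothelial markers summed to 508 to 631 in LFD, 476 to 526 in HFD, 480 to 615 with siRNA and 467 to 513 with the inhibitor, and no marker was at 0 throughout a group. The part of these differences in the levels of ribosomal protein genes was not tested.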

How the data were processed

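RNA of 16 mouse livers, 4 per group, was measured. The authors deposited expected counts per gene; the submitters' processing notes name STAR, RSEM and mm39 without versions, while the study's methods name HTG EdgeSeq, and which assay made the table is not settled in the sources used here. Of the values, 15.1% were not whole, and they were rounded. Genes passed a filter (edgeR's filterByExpr, minimum count 10, minimum total 15), which left 18335. One quasi-likelihood model over all 16 libraries was fitted in edgeR 4.0.16 (R 4.3.3) with TMM scaling, 12 residual degrees of freedom and Benjamini-Hochberg adjustment over all genes, with a threshold of 0.05. Levels are TMM-scaled CPM. The correction subtracted a smooth trend on GC content and transcript length from 15858 genes with both (86.5%). Alternatives included DESeq2 1.42.0, other filters, a replicate block and leaving out libraries. The fit was tested on simulated data. GC content, lengths and gene types came from GENCODE M21 and promoters from RefSeq, both GRCm38, so that no gene coordinates are given beyond those of the promoters. Named members were those of the role lists, Rps3 and Rplp0, the 3 highest and 3 lowest fold changes of 4 comparisons, members not called in HFD versus LFD and the 5 highest in LFD; from each other list, the 2 largest called changes in HFD versus LFD. Rpl7 and Rpl22 were named after their values were seen. Members and lists were chosen with earlier results of these data known. P-values set a difference between group means against the spread between these samples, 4 per group. Results of some genes are not reported here.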

Additional observations from a re-analysis of the deposited data

Results flagged for a closer look

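In 4 of 132 groups of 4 libraries tested for named members, 1 library lay far from the others, where chance gives about 1 in 20. Rpl10 was at 196 CPM in HFD replicate 3 and at 233 to 238 in the other HFD libraries. Rpl23a was at 90.8 CPM in HFD replicate 2 against 106 to 107, and at 173 CPM in HFD + Inhib replicate 3 against 152 to 154. Rpl39 was at 40.4 CPM in HFD + Inhib replicate 3 against 64.1 to 66.7.

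The effects of inhibitor and siRNA, each relative to the same HFD libraries, differed in 7 named members by edgeR's direct comparison of the treated groups. The inhibitor effect minus the siRNA effect (log2) was -0.32 in Rpl26, -0.58 in Rpl27a, -0.26 in Rpl36al and -0.38 in Rplp0. It was -0.40 in Rps2, -0.33 in Rps3 and -0.64 in Rps4l. Over all genes 16.6% were lower in HFD + Inhib than in HFD + siRNA. Leaving out 1 library ended the call of Rpl26 without HFD + siRNA replicate 2, 3 or 4 or HFD + Inhib replicate 1, 3 or 4 (adjusted p 0.056 to 0.13, edgeR), of Rpl36al without HFD + siRNA replicate 2 or 4 or any HFD + Inhib library (0.057 to 0.22), and of Rps2 without HFD + siRNA replicate 1, 3 or 4 or HFD + Inhib replicate 3 or 4 (0.067 to 0.10). That of Rps3 was lost without HFD + siRNA replicate 2 or 4 or HFD + Inhib replicate 3 or 4 (0.061 to 0.084), and that of Rps4l without HFD + siRNA replicate 1 or 3 or HFD + Inhib replicate 1 or 2 (0.055 to 0.081). With correction for GC content and length, Rpl26 (adjusted p = 0.43), Rpl36al (0.11), Rps2 (0.15) and Rps4l (0.27) did not pass.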

How the results depend on the processing

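The median changes in HFD versus LFD, HFD + siRNA versus HFD and HFD + Inhib versus HFD kept their direction in every setting run, with 71 to 81, 51 to 68 and 33 to 52 members called on leaving out 1 library. With the GC and length correction, that correction with replicate block, and its trend taken from other genes, the median in HFD versus LFD was -0.51, -0.51 and -0.54 (-0.54 for length alone). In HFD + siRNA versus HFD these gave 44, 45 and 45 calls and medians of 0.32, 0.33 and 0.33, with length alone 44 and 0.38, and an adjusted p under 0.01 gave 44. In HFD + Inhib versus HFD the median was 0.26 with the correction and 0.25 with block. Corrected medians of the large and small subunit were -0.51 and -0.51 in HFD, 0.32 and 0.32 with siRNA, 0.22 (small) with the inhibitor and -0.034 (large) between treatments. HFD + Inhib versus HFD + siRNA gave 0 calls at an adjusted p under 0.01 in edgeR, 7 with GC content alone, 5 without both replicates 3, and 6 to 13 on leaving out 1 library. HFD + siRNA versus LFD gave 1 call at 0.01, 7 in DESeq2, 1 with only these groups, 18, 16 and 18 under the corrections, 11 for GC content, 12 for length, and 1 to 6 on leaving out 1 library. HFD + Inhib versus LFD gave 20 at 0.01 and 23 to 43 on leaving out 1 library. Without the 100 highest genes the shares were 2.11% in LFD, 1.33% in HFD, 1.89% with siRNA and 1.64% with the inhibitor. Fau in HFD + siRNA versus HFD reversed to -0.058, -0.044 with block and -0.037 with the trend of other genes. The causes were not tested. Replicate numbers did not pair the libraries (same-number correlations -0.13 to 0.34), and a replicate block gave 81, 74, 44, 15, 3 and 42 calls in the comparisons HFD versus LFD, HFD + siRNA versus HFD, HFD + Inhib versus HFD, HFD + Inhib versus HFD + siRNA, HFD + siRNA versus LFD and HFD + Inhib versus LFD. Single alternatives using the trend of other genes, GC content or length alone, and both replicates 3 left out were chosen after seeing the data.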
